A study of Homo sapiens with 8 samples.

Results

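The genes described here are the protein-coding genes that span at least 300000 bases of the human genome, from the first base of the first exon to the last base of the last. GENCODE release 44 on the hg38 build holds 826 of them. Of these, 815 were matched to a row of the short-read gene table, 248 by their Ensembl identifier and 567 through an assembled locus (identifier MSTRG) on the same strand. The length of the overlap divided by the length of both spans together (the Jaccard index) had to be at least 0.5, and 467 of the 510 assembled loci that were tested reached 0.95. A gene entered the test when 3 or more libraries gave it 10 or more normalized counts, and 611 long coding genes passed. They are set beside 11882 tested coding genes under 300000 bases, called shorter coding genes here, and beside all 26066 tested genes.

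The RNA came from HAP1 cells, a leukemia line derived from KBM-7 with a near-haploid genome, with no treatment or genetic change named for any group. Nuclei were opened in a buffer of urea and detergent and spun, which left the chromatin fraction in the pellet and the nucleoplasm fraction in solution. Short-read libraries, depleted of ribosomal RNA, directional and single-end, were made from both fractions of 3 independent cultures, and 2 long-read libraries were made from chromatin RNA only. One label field names chromatin for all 8 libraries, and the titles decided the fraction of each. No marker list of HAP1 cells was examined, and all cells belong to 1 line.

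A coding gene of this size is mostly intron. RNA polymerase moves along the gene while introns are removed from the growing transcript, so a nucleus holds both unfinished transcripts that are still attached to the DNA by the polymerase and finished, spliced mRNA on its way to the cytoplasm. Long coding genes are known for encoding adhesion molecules, large scaffold proteins, signalling enzymes and transcription factors, many of them prominent in neurons, and for lying at common fragile sites, regions that break when DNA replication is slowed.

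Sequencing depth was 38895027 to 43804918 reads in the chromatin libraries and 75737601 to 79523938 in the nucleoplasm libraries. The fraction markers went with the titles: the chromatin-retained MALAT1 and PVT1 had log2 fold changes of chromatin over nucleoplasm of 3.09 and 3.11, and GAPDH and B2M, mRNAs that are exported well, had -2.35 and -2.11. The 9 mitochondrial mRNAs in the table took 0.159 to 0.176% of gene counts in chromatin and 0.332 to 0.393% in nucleoplasm, and their part in the results was not tested. All fold changes are relative to the authors' size factors, on which the median gene had a log2 fold change of -0.02. Scaling each library to the same sum of ERCC standards, synthetic RNAs added in equal volume to each fraction, moved this median to -1.33, and scaling to the same total moved it to 0.44. "Higher in chromatin" therefore means higher relative to the typical gene. A lower recovery of RNA from a fraction cannot be told apart from less RNA per nucleus in it.

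The boundaries of the longest intron in each gene's canonical transcript show how such genes are laid out, and both ends are printed below from hg38 for 9 genes that recur in the results: the 3 highest in chromatin, the 3 lowest among genes that passed the test with no overlap between fractions, and the 3 longest. Each line for a 5′ splice site holds the last 10 exon bases and the first 20 intron bases, each line for a 3′ splice site the last 20 intron bases and the first 10 exon bases, and capitals mark the GT and AG that delimit the intron.
CUBN 5′ splice site: tttgtttacgGTaagccaggtgctgatctc
CUBN 3′ splice site: gaacctttctgttttaacAGgttgtggtgg
KCNQ5 5′ splice site: acgctttcgtGTgagtacccgcgccccctg
KCNQ5 3′ splice site: ctctttttgttgttttacAGttttctcctt
PPFIA2 5′ splice site: tgatccaccgGTaagttagattcttcatta
PPFIA2 3′ splice site: tatttttattacttttccAGgaatttgctg
DNAH11 5′ splice site: aaaaaggaaaGTaagtattcttgaattttt
DNAH11 3′ splice site: ctgtgttttgctccgtttAGgtatatcagg
TAFA5 5′ splice site: gcctactgcaGTgagtaccgcgcggccccg
TAFA5 3′ splice site: gcttctgctcctctctgcAGgtcagctggc
DNAH5 5′ splice site: agagaagcagGTgagtgaagtgtggctccc
DNAH5 3′ splice site: atatttatgcaaattaatAGgaattggaga
RBFOX1 5′ splice site: gcagctaaggGTaggtgcacctgcttgtaa
RBFOX1 3′ splice site: gcacctttttgatttttcAGggtaatcagg
CNTNAP2 5′ splice site: tccacgtcccGTaagtagccgtctcctcgc
CNTNAP2 3′ splice site: tctctgtcttttgttttcAGaaaaatgtga
PTPRD 5′ splice site: cacacaactaGTaagtaatatctgtgaact
PTPRD 3′ splice site: tctctcacttttcctttcAGggaaatcttg
These introns are chr10:16990516-17019832 (minus strand) in CUBN, chr6:72622588-73003907 (plus) in KCNQ5, chr12:81457867-81676790 (minus) in PPFIA2, chr7:21818340-21842543 (plus) in DNAH11, chr22:48489705-48646596 (plus) in TAFA5 and chr5:13737496-13751077 (minus) in DNAH5. In the 3 longest genes they are chr16:7052099-7518146 (plus) in RBFOX1, chr7:146116974-146774270 (plus) in CNTNAP2 and chr9:10033791-10340962 (minus) in PTPRD. The CNTNAP2 intron is 657297 bases long and takes 28.5% of that gene, the KCNQ5 intron takes 66.1% of its gene, and the DNAH5 intron, of 13582 bases, takes 4.22%. All 9 introns carry the same pair of delimiting bases, whatever the fraction in which the gene was higher.

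Compared with shorter coding genes, the 611 long genes had more exons (median 17 against 9), a longer exon sequence in sum (10507 against 5290 bases) and a lower GC content (39.2% against 45.2%). Exons took a median of 2.15% of the span of long genes and 15.9% of that of shorter genes, and the longest intron had a median length of 130150 bases in the long genes. That intron began with GT and ended with AG in 608 of the 611 long genes (99.5%), and in 99.4% of the shorter genes that have an intron. The letters GTAAGT, searched at the first 6 bases of the longest intron in the direction of transcription, opened it in 136 long genes (22.3%) and in 1477 of 11543 shorter genes (12.8%). Members with these letters had a median log2 fold change of 0.24 (n = 136) and the other members one of 0.21 (n = 475).

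Long coding genes were, on balance, slightly higher in chromatin relative to the typical gene, with few large differences in either direction. Their median log2 fold change was 0.21, and the same median in the 9 pairs of a chromatin with a nucleoplasm library lay between 0.16 and 0.27. The quartiles were -0.43 and 0.84. Shorter coding genes had a median of -0.42, and all tested genes one of -0.02. At an adjusted p-value under 0.05 (limma), 307 long genes (50.2%) were higher in chromatin and 209 (34.2%) in nucleoplasm, and the other 95 passed in neither direction. The same test put 44.2% of all tested genes higher in chromatin and 45.2% higher in nucleoplasm. With the same ERCC total, 42 long genes were higher in chromatin and 454 in nucleoplasm, and with the same total of gene reads 408 and 94. Relative to the median of all tested genes, the median of the long genes was 0.23, 0.22 and 0.23 on the authors' factors, the ERCC total and the same total. These values could hardly differ, because a scaling shifts all genes of a library by nearly the same amount.

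Calls past 4-fold were uncommon among long coding genes. In chromatin 30 of the 611 were called (4.91%), against 21.2% of all tested genes and 3.89% of shorter coding genes. In nucleoplasm 1 was called (0.164%), against 8.47% of all tested genes and 6.0% of shorter coding genes. With the replicate number as a block it was 2, DNAH11 and SUGCT (log2 fold change -2.15, adjusted p = 0.0292 with the block and 0.0689 without). Past 2-fold, 130 long genes (21.3%) were higher in chromatin and 40 (6.55%) in nucleoplasm, beside 32.2% and 26.9% of all tested genes. The filter let 8 genes through that had under 10 normalized counts in every nucleoplasm library and 1 with under 10 in every chromatin library. Without these 9, the median log2 fold change was 0.21 and 28 genes were called in chromatin.

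The log2 fold change rose with the span of the gene across all coding genes. Its median was -0.66 in the 5403 genes under 30 kb, -0.34 from 30 to 100 kb, -0.16 from 100 to 200 kb and -0.00 from 200 to 300 kb. Among the long genes it was 0.09 from 300 to 500 kb (n = 390), 0.24 from 500 kb to 1 Mb (n = 179) and 0.49 at 1 Mb or more (n = 42). The ranges of these medians over library pairs did not overlap between neighbouring classes, with 0.08 to 0.16, 0.19 to 0.39 and 0.43 to 0.59 in the 3 long classes. Of the 42 genes of 1 Mb or more, 30 (71.4%) were higher in chromatin and 5 (11.9%) lower at an adjusted p under 0.05. All tested genes gave 44.2% and 45.2%. Called in chromatin were 4 (9.52%), against 21.2% of all tested genes. These counts hold on the authors' size factors. The share called in nucleoplasm was 10.1% under 30 kb and 1.32% from 200 to 300 kb, against 8.47% of all tested genes.

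**Figure D1:**
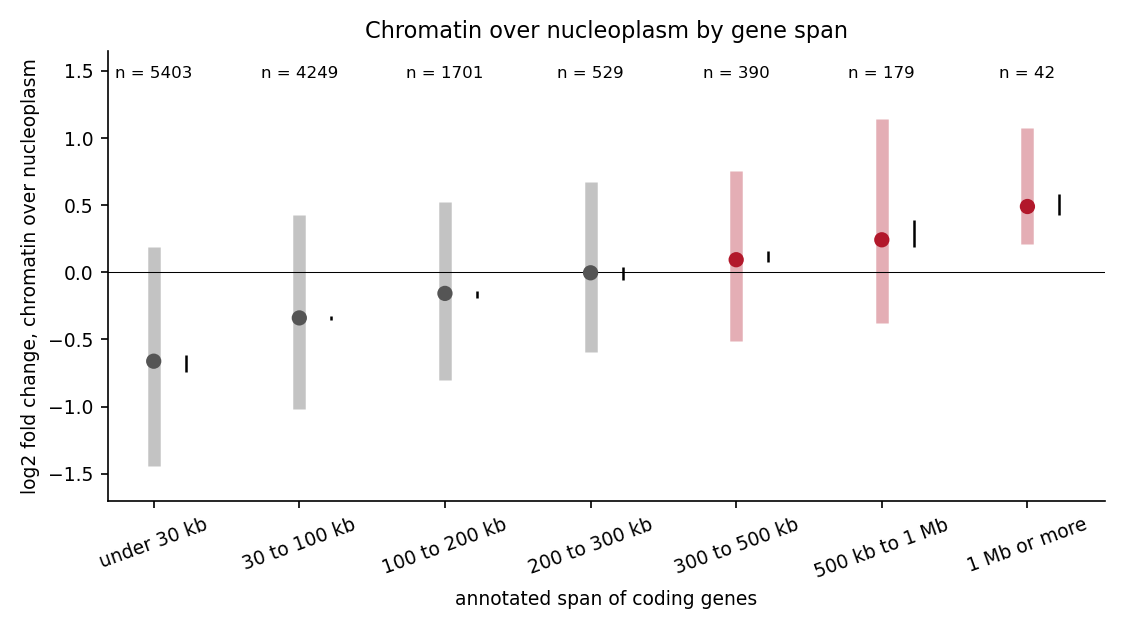
Median log2 fold change of chromatin over nucleoplasm (points, vertical axis) of tested coding genes in 7 classes of annotated span (horizontal axis), with a thick bar from the lower to the upper quartile of the genes and the range of the median over 9 library pairs as a thin line to its right. The median goes from -0.66 under 30 kb to 0.49 at 1 Mb or more, and the 3 classes of long genes, in red, lie above 0 on the authors' size factors.

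Long and shorter genes of like abundance were compared in 10 bands of equal size, cut from the tested coding genes by mean normalized count. The median log2 fold change of the long genes was above that of the shorter genes in 10 of 10 bands, by 0.20 to 1.05. Weighted by the number of long genes, the difference was 0.55, or 1.47-fold. A like difference, of median log2 levels within each library, was 0.24, 0.37 and 0.24 in chromatin and -0.17, -0.24 and -0.20 in nucleoplasm. Its SD between replicates, pooled over the fractions, was 0.06 (n = 3 in each). The bands were cut by the mean over the same 6 libraries, so opposite signs in the fractions largely follow from the matching. They are no support apart from the fold changes. In the highest band 16.3% of long and 2.82% of shorter genes were called in chromatin, and in the lowest band 2.94% of long and 16.1% of shorter genes.

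**Figure D2:**
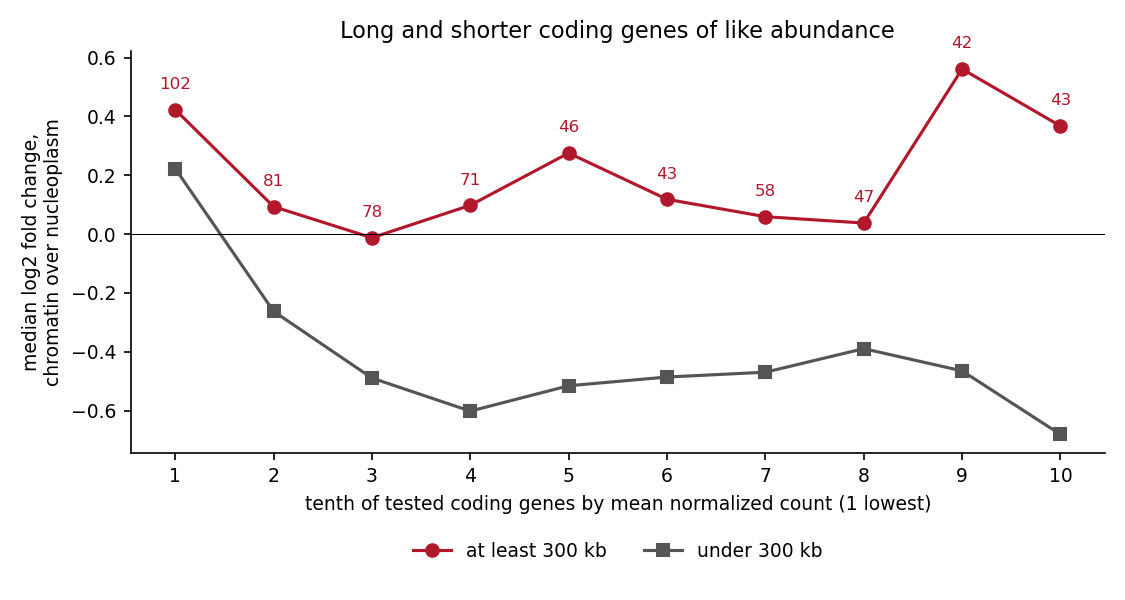
Median log2 fold change of chromatin over nucleoplasm (vertical axis) in 10 bands of tested coding genes by mean normalized count (horizontal axis, lowest at the left), for genes of at least 300 kb (red circles, number of genes above each) and under 300 kb (grey squares). The red line lies above the grey line in every band, by 0.20 at least and 1.05 at most.

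The size of that difference depended on which property was held alike. In bands by mean count per kilobase of exon it was 0.40, and in bands by the summed length of the exons it was 0.28. With the tested coding genes split by exon length into 3 classes of equal size, in the shortest class long genes had a median log2 fold change of -0.50 (n = 44) and shorter genes one of -0.90. The values were -0.19 (n = 112) and -0.43 in the middle class, and 0.33 (n = 455) and -0.05 in the longest class. Among the 611 long genes, the Spearman correlation with the log2 fold change was 0.29 for exon length, 0.20 for the number of exons, 0.18 for span, 0.09 for the longest intron, -0.23 for GC content and 0.01 for mean count. These are descriptions across genes of the same 6 libraries.

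The largest differences toward chromatin belonged to CUBN, KCNQ5, PPFIA2, PXDNL, SYNE2 and NFIA. KCNQ5, a voltage-gated potassium channel subunit (MSTRG.28365, hg38 chromosome 6, 72552382 to 73198851 in the table), had 11282, 15241 and 11562 normalized counts in chromatin and 948, 863 and 847 in nucleoplasm. Every chromatin library was far above every nucleoplasm library. The log2 fold change was 3.83 (SE 0.11, adjusted p = 1.37e-08). PPFIA2, which encodes a liprin scaffold of presynaptic terminals (MSTRG.7477, chromosome 12, 81257834 to 81759893), had 47949, 58657 and 49342 normalized counts in chromatin and 4092, 3773 and 3765 in nucleoplasm. The fractions were far apart, with a log2 fold change of 3.74 (SE 0.08, adjusted p = 8.83e-09).

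SYNE2 encodes nesprin, a giant protein that ties the nuclear envelope to the cytoskeleton (MSTRG.9504, chromosome 14, 63761899 to 64226433). It had 31771, 32426 and 31176 normalized counts in chromatin and 3328, 3428 and 2976 in nucleoplasm. Replicates were close in both fractions, and the log2 fold change was 3.29 (SE 0.06, adjusted p = 8.39e-09). NFIA, a transcription factor of the nuclear factor I family (MSTRG.1219, chromosome 1, 60865259 to 61462971), had 13242, 16591 and 12642 normalized counts in chromatin and 1473, 1475 and 1416 in nucleoplasm. Its log2 fold change was 3.27 (SE 0.09, adjusted p = 1.34e-08).

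The other genes of the leading 6, CUBN and PXDNL, were near the detection limit in nucleoplasm and passed the filter on low counts only through chromatin, the fraction in which they are high, so their values describe genes selected through that fraction. CUBN, which encodes cubilin, the receptor for vitamin B12 bound to intrinsic factor (ENSG00000107611.16, chromosome 10, 16823966 to 17129811), had 38, 47 and 50 recovered reads in the chromatin libraries and 0, 2 and 0 in the nucleoplasm libraries. The ratio of its summed reads, each fraction divided by its size factors, was 90.4, with an exact 95% interval for counting error of 24.5 to 754. PXDNL, a relative of the extracellular matrix enzyme peroxidasin (ENSG00000147485.13, chromosome 8, 51319577 to 51809445), had 13, 11 and 14 reads in the chromatin libraries and 2, 0 and 0 in the nucleoplasm libraries. Its ratio was 25.4, with an interval of 6.58 to 218. Both genes had reads in every chromatin library and in 1 nucleoplasm library.

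The 30 genes called in chromatin had log2 fold changes from 2.02 to 5.23 and mean normalized counts from 7.58 to 27930. Of these, 20 had a mean of at least 1000, against 266 of the 581 other long genes. Their median exon length was 16542 bases, against 10304 in the other long genes, and their median longest intron 190988 bases, against 129187. GTAAGT opened the longest intron in 11 of the 30 (36.7%) and in 21.5% of the others. Of the genes in no list, CACNB2 (log2 fold change 3.14), a calcium channel subunit, and KIAA1328 (3.13) were highest after those above. TRPM3 (2.73), a cation channel, ZC3H12B (2.76), ACSS3 (2.54), AOPEP (2.55), TTC6 (2.36), MBD5 (2.08), a methyl-CpG-binding domain protein, PPP1R9A (2.23), an actin-binding partner of protein phosphatase, PRH1 (2.31) and TTN (2.24), which encodes the muscle protein titin, were the others. The rows of PRH1 and TTN overlap 12 and 1 other coding genes on their strand, so their values are uncertain. CACNB2 had 10063 ± 1923 normalized counts in the chromatin libraries against 1128 ± 56.5 in the nucleoplasm libraries, and KIAA1328 had 4816 ± 656 against 549 ± 47.4. edgeR and DESeq2 on recovered reads each called 31 long genes in chromatin, and all 30 were among them.

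In the opposite direction DNAH11 was the 1 long gene called in nucleoplasm without a block, and its counts were low. DNAH11, a dynein heavy chain of motile cilia (MSTRG.30264, chromosome 7, 21543039 to 21901839), had 12.8, 0 and 4.39 normalized counts in chromatin and 27.2, 17.2 and 16.9 in nucleoplasm. All nucleoplasm libraries were above all chromatin libraries. The log2 fold change was -2.32 (SE 0.83, adjusted p = 0.0263), and without nucleoplasm replicate 1 the adjusted p was 0.0776. The ratio of its mean normalized counts was 3.56, under 4-fold. DNAH5, another ciliary dynein heavy chain (ENSG00000039139.9, chromosome 5, 13690331 to 13944543), had 0, 9.61 and 3.29 normalized counts in chromatin and 12.3, 12.9 and 12.7 in nucleoplasm. Its log2 fold change was -1.93 (SE 0.74, adjusted p = 0.0359), and leaving out chromatin replicate 1 or 3, or any 1 nucleoplasm library, gave adjusted p-values of 0.0502 to 0.0734. It passed the filter only through nucleoplasm.

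The other low values rested on more reads. TAFA5, a secreted chemokine-like protein (MSTRG.22086, chromosome 22, 48489553 to 48850912), had 143, 136 and 111 normalized counts in chromatin and 529, 517 and 494 in nucleoplasm, which gave a log2 fold change of -1.98 (SE 0.10, adjusted p = 2.13e-07). PUDP, a phosphatase of modified nucleotides (MSTRG.34603, chromosome X, 6667865 to 7148195), had 578, 496 and 546 in chromatin and 1845, 1978 and 1912 in nucleoplasm, which gave a log2 fold change of -1.82 (SE 0.07, adjusted p = 3.09e-08). The fractions of both genes were well apart. SPOCK1, an extracellular proteoglycan (MSTRG.26841, chromosome 5, 136975298 to 137598379), averaged 311 ± 22 normalized counts in the chromatin libraries against 1092 ± 51.6 in the nucleoplasm libraries (mean ± SD, n = 3 each), with a log2 fold change of -1.81 (SE 0.07, adjusted p = 4.14e-08). HS6ST2, a sulfotransferase of heparan sulfate chains (MSTRG.35659, chromosome X, 132626010 to 132961395), had 1708 ± 147 and 5908 ± 155, a log2 fold change of -1.79 (SE 0.07, adjusted p = 2.97e-08).

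The 6 longest genes did not move together. RBFOX1, a regulator of alternative splicing and the longest at 2473539 bases (ENSG00000078328.22, chromosome 16, 5239802 to 7713340), had 21.0, 16.8 and 22 normalized counts in chromatin and 14.9, 17.2 and 16.1 in nucleoplasm. The fractions overlapped, and the log2 fold change of 0.29 (SE 0.19, adjusted p = 0.19) did not pass. CNTNAP2, a neuronal adhesion protein of the neurexin family (MSTRG.31571, chromosome 7, 146116002 to 148420998), had 345, 341 and 394 in chromatin and 935, 964 and 934 in nucleoplasm. It was higher in nucleoplasm, with a log2 fold change of -1.39 (SE 0.07, adjusted p = 1.69e-07). PTPRD, a receptor-type tyrosine phosphatase (MSTRG.33292, chromosome 9, 8314174 to 10612723), had 2312 ± 109 in chromatin and 2129 ± 90.9 in nucleoplasm, and its libraries overlapped (log2 fold change 0.12, adjusted p = 0.0694, and 0.0455 with the replicate number as a block).

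DMD, which encodes dystrophin (MSTRG.34783, chromosome X, 31097677 to 33339441), had 1918, 1884 and 1977 normalized counts in chromatin and 1380.4, 1420.4 and 1433 in nucleoplasm, and its log2 fold change of 0.45 (SE 0.05, adjusted p = 1.61e-05) became -0.87 with the same ERCC total. DLG2, a membrane-associated scaffold of synapses (MSTRG.5778, chromosome 11, 83455012 to 85628399), had 1669, 1734 and 1603 in chromatin and 356, 341 and 324 in nucleoplasm. It was called in chromatin, with a log2 fold change of 2.29 (SE 0.06, adjusted p = 1.07e-08). EYS, a protein of photoreceptors (MSTRG.28323, chromosome 6, 63719980 to 65707226), had 96.7, 101 and 143 in chromatin and 63.2, 64.6 and 54.9 in nucleoplasm, and its log2 fold change of 0.87 (SE 0.17, adjusted p = 0.00101) became -0.44 with the same ERCC total.

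**Figure D3:**
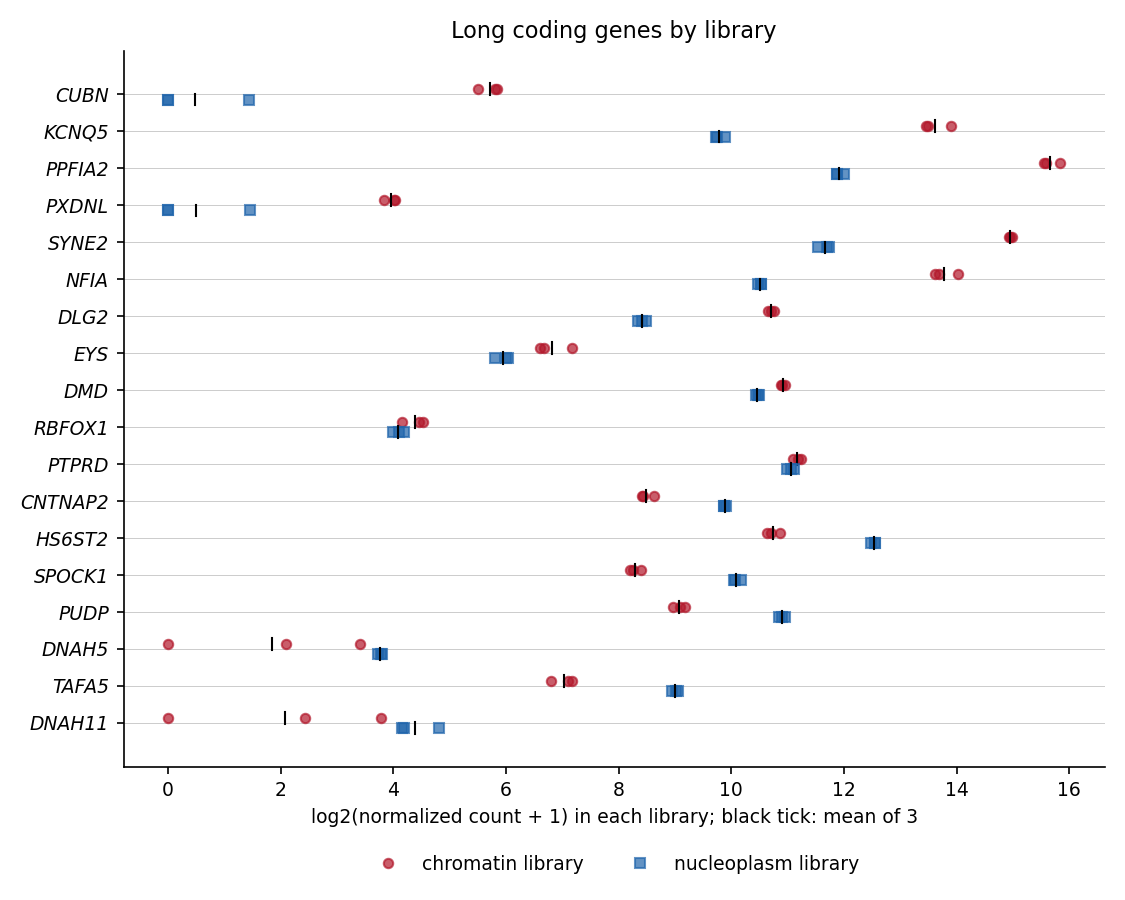
Normalized counts on the log2(count + 1) scale (horizontal axis) of the 6 genes highest in chromatin, the 6 lowest that passed the test without overlap and the 6 longest (rows, ordered by log2 fold change), with 1 point per library (red circles for chromatin, blue squares for nucleoplasm) and a black tick at the mean of 3. The colours are far apart for KCNQ5, PPFIA2, SYNE2 and NFIA, overlap for RBFOX1 and PTPRD, and are scattered in chromatin for DNAH5 and DNAH11, each with 1 chromatin library at 0.

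The most abundant long genes per kilobase of exon included GPC3, a heparan sulfate proteoglycan of the cell surface (MSTRG.35664, chromosome X, 133535745 to 133985594). It had a mean of 4739.9 normalized counts per kilobase of exon, and 8696 ± 566 normalized counts in chromatin against 22407 ± 1392 in nucleoplasm (log2 fold change -1.37, SE 0.07, adjusted p = 1.35e-07). The other members of the leading 4 per kilobase have no gene symbol, and their rows hold other coding genes on the same strand: ENSG00000271949 (17089 per kilobase, log2 fold change 0.66, and -0.66 with the same ERCC total), ENSG00000249209 (8915, log2 fold change -0.61) and ENSG00000255872 (4032, log2 fold change -0.18). Reads of the neighbours cannot be separated from theirs, so these values are uncertain. In all, 58 of the 611 rows overlap another coding gene on their strand, among them all 15 members without a symbol. Their median log2 fold change was -0.08, and that of the other rows 0.23.

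The limit of 300000 bases fell between genes with unlike values. ENSG00000271949, above, and COBL, an actin nucleator, are the 2 genes just inside it, at 300111 and 300607 bases. COBL had a log2 fold change of 0.26 (-1.06 with the same ERCC total). PCBP3, an RNA-binding protein, and GHR, the growth hormone receptor, lie just outside it at 298761 and 298440 bases. Their log2 fold changes were 0.84 (-0.47 with the same ERCC total) and -0.31.

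The long genes were also read in 8 broad lists, some of which share genes. Some members lie outside the plain sense of a list's name. The phospholipases PLCB1 and PLCB4 stand with the kinases and CAMTA1 with the cytoskeleton genes. EXOC4 stands under RNA binding as well as membrane trafficking. The lists are also incomplete. ZBTB7C, BACH1, RUNX2 and RFX3 are not among the transcription factors, nor NLGN4X, NLGN4Y, NRCAM and PCDH11Y among the adhesion genes. DNAH14 is a listed cytoskeleton gene, but DNAH5, DNAH6, DNAH7, DNAH8 and DNAH11 are not. Genes left out lie on both sides of 0, so counts, medians and ranks hold for the listed genes only. Counts of higher and lower genes are at an adjusted p under 0.05, to be read against 44.2% higher and 45.2% lower among all tested genes. These counts and directions hold on the authors' size factors. With the same ERCC total the medians of all 8 lists were below 0, and with the same total of gene reads all were above 0. Relative to the median of all tested genes each list moved by at most 0.02 between these scalings, which shift all genes nearly alike.

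Of the 47 tested genes listed as transcription and chromatin factors 35 were higher in chromatin and 6 lower. Their median log2 fold change was 0.65 (-0.68 with the same ERCC total). With the same ERCC total 7 were higher and 28 lower, and with the same total of gene reads 42 and 1. Called in chromatin were NFIA, its paralog NFIB (2.80), AUTS2 (2.67), a partner of Polycomb complexes, the nuclear receptor RORA (2.31), the zinc finger repressor ZBTB20 (2.26) and SOX6 (2.02). The lowest in the list was ZNF423, a zinc finger factor of development, with 192 ± 18.5 normalized counts in chromatin and 349 ± 11.6 in nucleoplasm (log2 fold change -0.86, adjusted p = 1.68e-05).

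Of the common fragile site genes 16 of 25 were higher in chromatin and 7 lower, with a median of 0.65 (-0.67 with the same ERCC total). These counts were 5 and 14 with the same ERCC total, and 19 and 3 with the same total of gene reads. The highest was IMMP2L, a subunit of the protease of the mitochondrial inner membrane, with 4413, 5936 and 4840.0 normalized counts in chromatin and 577, 561 and 542 in nucleoplasm (log2 fold change 3.16, SE 0.10, adjusted p = 1.73e-08). The list's other calls were AUTS2, MAGI2 (2.35), RORA and DLG2. FHIT and WWOX, named here as well-known genes of such sites, had log2 fold changes of 0.65 and 0.37. DAB1, an adaptor of reelin signalling, was lowest with 634 ± 9.85 and 1309 ± 59.2 normalized counts (log2 fold change -1.04, adjusted p = 1.89e-07), and its row overlaps another coding gene.

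Cytoskeleton and scaffold proteins had 28 of 41 listed members higher in chromatin and 9 lower, with a median of 0.45 (-0.87 with the same ERCC total). The ERCC total gave 6 and 29, and the same total of gene reads 34 and 3. SYNE2 was highest, and MAGI2, DLG2, DST (2.13) and MACF1 (2.12) were called as well. DST and MACF1 encode the spectraplakins, which link actin filaments with microtubules. CTNNA1, alpha-catenin of adherens junctions, was lowest in the list, with 3854, 3532 and 3491 normalized counts in chromatin and 9098, 9103 and 8073 in nucleoplasm (log2 fold change -1.27, adjusted p = 1.69e-07).

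Small GTPase regulators had 22 of 33 members higher and 7 lower, with a median of 0.48 (-0.85 with the same ERCC total). The ERCC total gave 1 and 27, and the same total of gene reads 26 and 4. Their highest value was that of DOCK3, an exchange factor of Rac, at 1.76 (4725 ± 571 normalized counts in chromatin, 1392 ± 6.56 in nucleoplasm, adjusted p = 9e-08). Cell adhesion and axon guidance genes had 18 of 33 listed members higher and 7 lower, with a median of 0.30 (-1.0 with the same ERCC total). For these the ERCC total gave 5 and 22, and the same total of gene reads 23 and 5. CADM2, a synaptic adhesion molecule, had 816, 893 and 686 normalized counts in chromatin and 111, 89.5 and 74.3 in nucleoplasm (log2 fold change 3.12, adjusted p = 1.45e-07). CNTN4 (2.53), PCDH9 (2.49) and MAGI2 were called with it. The lowest member, the sidekick adhesion molecule SDK2, had 21.0, 0 and 12.1 in chromatin and 22.8, 19.8 and 24.5 in nucleoplasm, and these libraries overlapped (log2 fold change -1.82, adjusted p = 0.114, and 0.0483 with the replicate number as a block).

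Kinases, phosphatases and phosphodiesterases had more members lower than higher in chromatin, 21 against 13 of 41, with a median of -0.22 that became 0.25 with the same total of gene reads. That scaling made 21 higher and 6 lower, and with the same ERCC total 33 of the 41 were lower and the other 8 did not pass. PPP3CA, the catalytic subunit of calcineurin, was lowest, with 1494, 1553 and 1541 normalized counts in chromatin and 3846, 3815 and 3764 in nucleoplasm (log2 fold change -1.32, adjusted p = 1.79e-08). PRKD1, protein kinase D, was highest with 4099.6, 5469 and 4110.0 in chromatin and 1520.0, 1640.0 and 1619 in nucleoplasm (log2 fold change 1.5, adjusted p = 1.59e-06), and its value was 0.18 with the same ERCC total.

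Ubiquitin, autophagy and membrane trafficking genes had 14 of 27 higher and 9 lower (median 0.15, and -1.17 with the same ERCC total). With the same ERCC total 2 were higher and 20 lower, and with the same total of gene reads 19 were higher and the other 8 did not pass. TRAPPC9, of a vesicle tethering complex, was highest at 1.91 (adjusted p = 2.52e-08), and ATG10, an enzyme of autophagosome formation, lowest at -0.88 (adjusted p = 0.00122). RNA binding and RNA processing genes had 7 of 16 higher and 7 lower (median 0.20, and -1.13 with the same ERCC total). With the same ERCC total 15 of the 16 were lower, and with the same total of gene reads 10 were higher and 3 lower. SND1, a nuclease of RNA silencing complexes, was lowest with 11334 ± 368 normalized counts in chromatin and 24316 ± 259.9 in nucleoplasm (log2 fold change -1.10, adjusted p = 4.9e-08). CELF4, a regulator of splicing and translation, had the highest value, 0.78, with overlapping fractions (adjusted p = 0.17, and 0.0338 with the replicate number as a block).

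**Figure D4:**
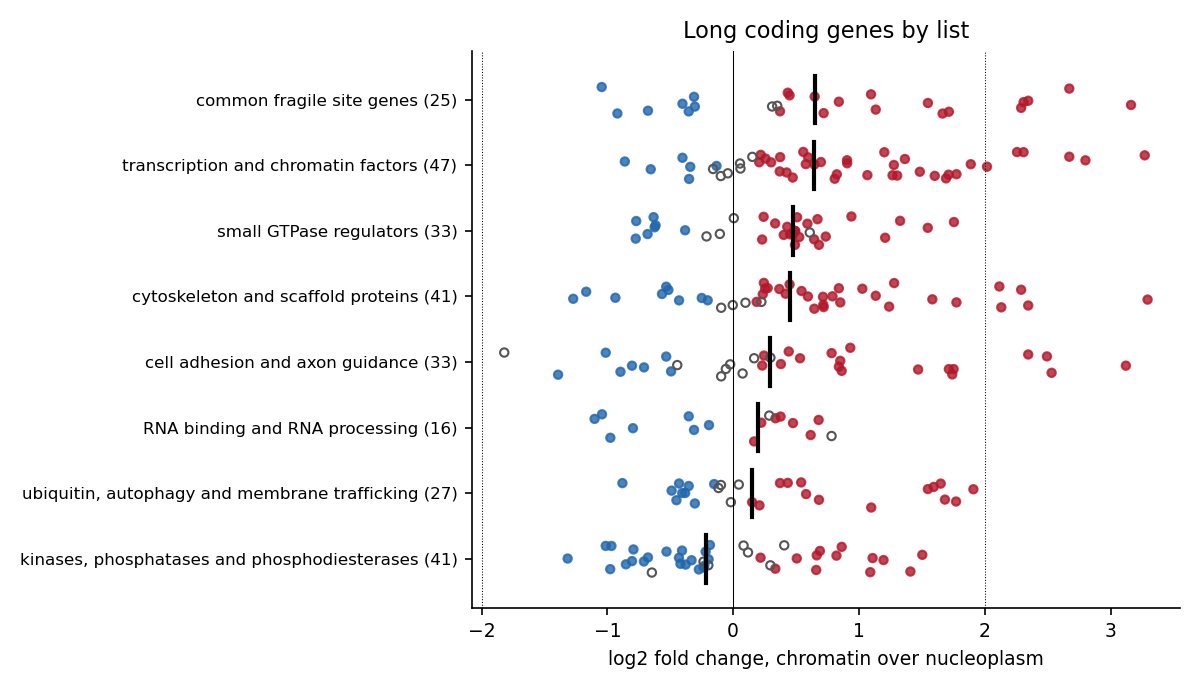
Log2 fold change of chromatin over nucleoplasm (horizontal axis) of each tested long gene in 8 lists (rows, number of genes in brackets, ordered by median), filled where the adjusted p was under 0.05 (red above 0, blue below) and open otherwise, with a black bar at the median and dotted lines at the 4-fold limits. Medians run from -0.22 for kinases, phosphatases and phosphodiesterases to 0.65 for common fragile site genes and for transcription and chromatin factors, and all 8 are below 0 with the same ERCC total.

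Related genes could lie far apart, as some pairs and families chosen after their values were seen show. The nesprin genes SYNE2 and SYNE1 had log2 fold changes of 3.29 (SE 0.06) and -0.00 (SE 0.05). The adhesion genes CADM2 and CADM1 had 3.12 (SE 0.15) and -1.01 (SE 0.06), and the potassium channel genes KCNQ5 and KCNQ1 had 3.83 (SE 0.11) and -1.09 (SE 0.11). HS6ST3 and HS6ST2 had 1.59 (SE 0.07) and -1.79 (SE 0.07), and TAFA2 and TAFA5 had 1.76 (SE 0.12) and -1.98 (SE 0.10). The gaps in these pairs are many times their standard errors, and no test of a gap was run.

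Other relatives were alike. NFIA and NFIB had 3.27 and 2.80, and DST and MACF1 had 2.13 and 2.12. Dystrophin and its relative utrophin were less so, with 0.45 for DMD and 1.78 for UTRN. Of the protein kinase C genes, PRKCA, PRKCB and PRKCH had -0.97, -1.01 and -0.98, and PRKCE had 0.66. Among the teneurins, TENM1 and TENM4 had 1.74 and 1.75, TENM2 had -0.06 (adjusted p = 0.844) and TENM3 -0.49. The DOCK genes split as well, with 1.76 for DOCK3 and 0.51 for DOCK4 against -0.62 for DOCK1 and -0.77 for DOCK2.

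Many long genes held shorter tested loci inside their span on the same strand, 671 in all. Of these, 401 had no matched gene in the annotation, in 156 long genes, with a median span of 5069 bases. Of the 401, 367 (91.5%) were chromatin calls and 3 nucleoplasm calls, and their median log2 fold change was 4.94. Of 1626 such loci inside shorter coding genes 83.8% were called in chromatin, with a median of 3.61, and of all 6654 tested loci with no matched gene 44.7%.

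The genes around these loci had a median log2 fold change of 0.27, and 10 of the 156 were called in chromatin. In 142 of the 156 the median locus was above the gene itself, and in 125 every such locus was called. Many of these genes hold a single such locus, and 91.5% of the loci were called in any case. The same counts for shorter coding genes are not given. GPHN, which encodes the receptor-clustering protein gephyrin, held 12, all called, with a median of 5.03, while the gene's own value was -0.02. ATG10 held 8, all called, with a median of 4.66, beside its own -0.88. The Spearman correlation between a gene's value and that of its median locus was 0.04 over the 156 genes, which share the same 6 libraries. Of 76 lncRNAs on the same strand inside long genes, 59 (77.6%) were called in chromatin, with a median of 3.53, against 37.5% of all 3438 tested lncRNAs. Of 124 processed pseudogenes there, 52 (41.9%) were called, with a median of 0.85, against 15.9% of all 2444 tested. Reads of such a copy may belong to its parent gene, which makes these values uncertain. Shares for lncRNAs and pseudogenes inside shorter coding genes are not given, so the higher shares cannot be tied to long genes in particular.

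**Figure D5:**
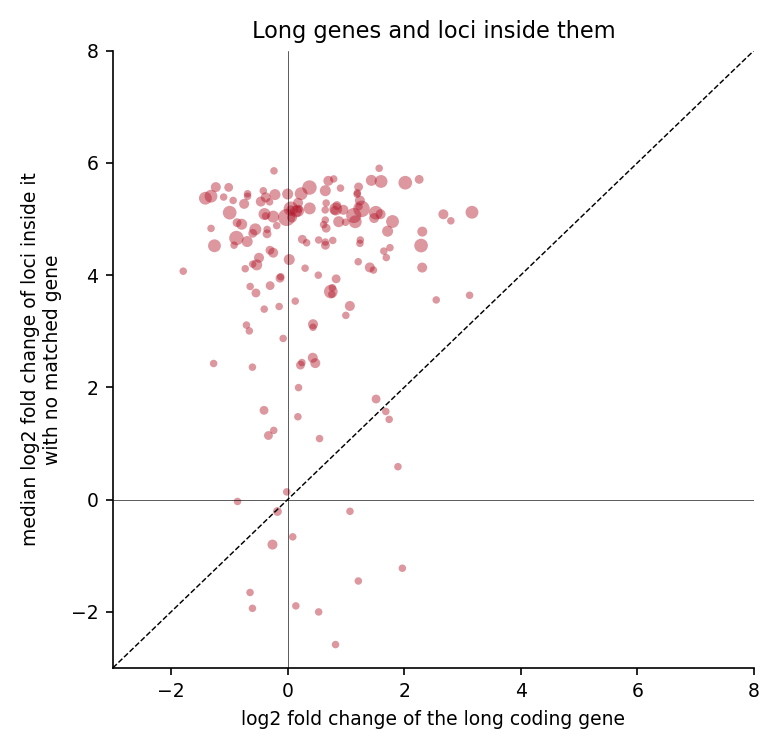
Median log2 fold change of the loci with no matched gene inside each of 156 long coding genes (vertical axis) against the log2 fold change of that gene (horizontal axis), with larger points for more loci and a dashed line where both are equal. In 142 of the 156 genes the point lies above the line, and many points stand for a single locus.

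The long-read chromatin libraries listed most long genes too, as TPM summed over the annotated transcripts of a gene. Of the 611, 471 (77.1%) were above 0 in both libraries, 87 in 1 of them and 53 in neither, and 83.7% of shorter coding genes were above 0 in both. The median among genes above 0 in both was 5.54 and 4.19 TPM in the 2 libraries for long genes, and 9.35 and 7.47 for shorter genes. Across the 471 genes, which are not independent replicates, Pearson's r of log2 TPM between the libraries was 0.80. In the lowest band of short-read counts 20.6% of long and 28.8% of shorter genes were above 0 in both libraries, and in the highest band 90.7% and 93.6%.

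Over annotated transcripts, GPC3 had the highest long-read level of the long genes, 181 and 270.2 TPM. PPFIA2 was at 59.5 and 33.3 TPM, SYNE2 at 34.5 and 33.5, and KCNQ5 at 4.38 and 3.30. The annotated transcripts of CUBN and of PXDNL were listed at 0 in 1 library and under 0.1 TPM in the other, and those of RBFOX1 at 0.466 and 0. DNAH11, low in the short reads, was at 1.67 and 0.905 TPM. In 434 of the 611 genes an annotated transcript was above 0 in both libraries, and in 282 such a transcript covered at least 90% of the span. Among 11851 shorter coding genes the same counts were 9239 and 6606. A TPM above 0 does not show that any read spans the transcript.

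Inside 373 of the long genes the long-read assembly placed 2831 transcripts of its own on the same strand that were above 0 in both libraries, with a median length on the genome of 2335 bases per gene. A further 2600 lay on the opposite strand, inside 410 of the genes. FHIT held the most on its own strand, 49, followed by MECOM, a zinc finger oncoprotein gene, with 41, and DLG2 with 40. Those inside PTPRG on its strand were at 468 and 561 TPM, above the annotated transcripts of GPC3. PXDNL held 1 on its strand, 213 bases long, at 1.94 and 4.26 TPM, and CUBN and RBFOX1 held none. Whether the deposited long-read table was made from reads with an assigned strand is not stated, so the split by strand is uncertain.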

How the data were processed

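Short reads were aligned by the authors with HISAT2 2.1.0 (version per the labels) to hg38 with the ERCC sequences, and transcripts were assembled and merged with StringTie. The deposited short-read signal is a gene count divided by the library's DESeq2 size factor, and the long-read table, also deposited by the authors, holds TPM for each transcript. Dividing each short-read value by the smallest of its library gave whole reads for 100% of values (tolerance 0.01 reads), and these recovered reads are the depth given. Because they come from StringTie coverage they are estimates, and intervals cover counting error only.

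Differences were tested on log2(normalized count + 1) in limma 3.58.1 under R 4.3.3, with its trend option, over 6 short-read libraries and no covariates. P-values were adjusted by Benjamini-Hochberg over the 26066 genes that spanned more than 200 bases and reached 10 normalized counts in 3 or more libraries. Fold changes are on this scale with its pseudocount, and for low genes they can lie above or below the ratio of the mean counts. A call needed an adjusted p-value under 0.05 and a fold change past 4. The log scale took the place of a count model because the deposited unit is normalized, and the recovered reads were tested with edgeR 4.0.16 and with DESeq2 1.42.0 as alternatives. On simulated counts for this comparison, 200 of 200 changed genes were called at an adjusted p under 0.05 and past 4-fold, and 0 unchanged genes. All changed genes were given the same change, well past the limit, with a low spread, and none came from the lowest counts. Recovery was therefore almost assured, and the simulation does not cover genes with few reads or changes near 4-fold. Replicates are independent cultures, but p-values measure only the spread of 3 libraries per fraction. Chromatin and nucleoplasm libraries with the same number deviated from their group means with correlations of 0.09, 0.05 and 0.06. For libraries with unlike numbers the correlations were lower, from -0.08 to 0.01. Both fractions came from the same cultures, but no source used here says that a number marks the same culture in both. The main test therefore does not pair the samples, and a fit with the number as a block is given as an alternative.

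Annotation, spans and sequences came from GENCODE release 44 and hg38, read with Python 3.11.15. The authors used an earlier GENCODE release, so a row's coordinates can differ from the span that chose it. The 10 bands were cut over all tested coding genes, and the long-minus-shorter difference of medians was averaged with the number of long genes as weight. The genes named are the 6 longest, the 6 highest called in chromatin and the 6 lowest past the test without overlap between fractions, the 4 most abundant per kilobase of exon, the 2 on each side of the span limit, and the highest and lowest of each list (the lowest GTPase regulator is not reported here), and others are named where they were called or were chosen after their values were seen. The span rule, the lists and the tests were chosen with earlier results of these data known.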

Additional observations from a re-analysis of the deposited data

How the results depend on the processing

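Scaling decided absolute direction. With the same ERCC total, there were 4 chromatin and 94 nucleoplasm calls, the median log2 fold change was -1.11, and COBL (-1.06), DMD (-0.87), ENSG00000271949 (-0.66), PCBP3 (-0.47) and EYS (-0.44) reversed. With the same total of gene reads the values were 67, 0 and 0.67. The difference between long and shorter genes within bands of mean count was between 0.55 and 0.56 on every scaling. A scaling shifts all genes of a library by nearly the same amount, so this difference could hardly change. The single nucleoplasm call became 2 with a pseudocount of 0.5 or without the filter, and 0 with a pseudocount of 5, a mean of at least 50 normalized counts, edgeR or DESeq2, where an unadjusted p under 0.05 gave 0 as well. A replicate block gave 30 chromatin and 2 nucleoplasm calls, and with it CELF4, PTPRD and SDK2 passed an adjusted p of 0.05. Each library's deviations correlated best with those of its own number. Leaving out each library in turn gave 29 to 33 calls in chromatin, 0 (without nucleoplasm replicate 1) to 3 (without chromatin replicate 1) in nucleoplasm, medians of 0.19 to 0.23 and differences of 0.53 to 0.58. A mean of at least 50 gave a difference of 0.62. A minimum span of 200000 bases gave 47 and 8 calls and a median of 0.11, and one of 500000 bases gave 14 and 0 calls, a median of 0.33 and a difference of 0.68. Past 2-fold there were 130 and 40 calls. The difference was 0.40 in bands by count per kilobase of exon and 0.63 against genes under 100000 bases. Chosen after seeing the data, bands by exon length gave 0.28, and leaving out rows that overlap another coding gene gave 0.62. The causes of these changes were not tested. Of 546 values of the 39 named genes under the other scalings, pseudocounts, block and tools and without each library, 513 kept their direction and side of the threshold, 17 passed only in the alternative, 11 passed only in the main test and 5 reversed.

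Depth limits the genes with few reads in a fraction, such as DNAH5, DNAH11, CUBN and PXDNL. TPM holds no depth, and only chromatin was sequenced with long reads.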

Other observations

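Of the 815 matched long genes, 204 did not pass the filter on low counts. Among them 90 were at 0 in all 6 short-read libraries. Of the 114 with a value above 0, 81 had the higher mean in chromatin and 33 in nucleoplasm, and the highest mean was 18.1 normalized counts. The other 11 annotated genes matched no row.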
